A study of Homo sapiens with 6 samples.

Results

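The calcitonin family members described here are the ligand genes CALCA, CALCB and ADM2, the receptor genes CALCR and CALCRL, and the receptor activity modifying protein genes RAMP1, RAMP2 and RAMP3. They are 8 of 18404 genes measured on the arrays. The list was chosen by the array values themselves, for the higher CALCB level in the TRIM71 line, so the members' values in that comparison are given as a description, with no p-value. How many of them met the call threshold of the fit is given as a count only, and nothing is read from it. Each of the 8 genes had 1 probeset annotated to it alone, no probeset shared with another symbol named any of them, and no probeset was filtered out. RNA came from 2 groups of 3 arrays. The TRIM71 arrays are HEK293 Flp-In cells that constitutively express TRIM71, a TRIM-NHL protein that binds RNA, with a FLAG-HA tag (genotype FHA-TRIM71 overexpression). The parental arrays are wild-type HEK293 Flp-In cells. HEK293 cells derive from human embryonic kidney and are an established line, and Flp-In cells carry a recombination site for a transgene. Both groups grew in DMEM with glutamine and foetal calf serum, and the labels name hygromycin B only for keeping the TRIM71 line, so transgene and drug cannot be told apart. The labels name neither the promoter of the transgene nor whether the line is 1 clone, and nothing says that the replicates were separate cultures, so the spread behind the p-values may be technical.

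The peptides of this family are secreted, most end in an amidated residue, and they act through class B1 G protein-coupled receptors. CALCA encodes calcitonin and, by alternative splicing, α-CGRP (calcitonin gene-related peptide), and CALCB encodes β-CGRP. The receptor protein CALCRL needs a RAMP at the cell surface: with RAMP1 it forms the CGRP receptor, with RAMP2 or RAMP3 the adrenomedullin receptors. CALCR alone is the calcitonin receptor and with a RAMP an amylin receptor. These receptors couple mainly to Gs and raise cAMP. CGRP is best known from sensory neurons and as a dilator of blood vessels, including those of the kidney, and calcitonin from the C cells of the thyroid.

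Promoter sequences of RefSeq (GRCh38.p14, 250 bases before to 50 after the annotated start) were at hand for 5 of the 8 genes, CALCA, ADM2, CALCR, CALCRL and RAMP3. Of these, 2 are shown: CALCA because it is the paralogue next to CALCB, and CALCRL because it had the largest difference after CALCB. CALCA lies at chr11:14972302-14972601 on the minus strand and CALCRL at chr2:187448203-187448502 on the minus strand, and both are written 5′ to 3′ on the strand of the gene. Capitals mark TGACG, the core of the cAMP response element to which CREB binds, searched on both strands (TGACG and CGTCA).
CALCA: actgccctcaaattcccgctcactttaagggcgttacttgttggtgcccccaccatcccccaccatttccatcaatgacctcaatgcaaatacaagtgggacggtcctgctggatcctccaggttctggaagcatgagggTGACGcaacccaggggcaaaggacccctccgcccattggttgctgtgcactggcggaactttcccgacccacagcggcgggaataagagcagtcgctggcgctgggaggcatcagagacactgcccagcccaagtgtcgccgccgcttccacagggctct
CALCRL: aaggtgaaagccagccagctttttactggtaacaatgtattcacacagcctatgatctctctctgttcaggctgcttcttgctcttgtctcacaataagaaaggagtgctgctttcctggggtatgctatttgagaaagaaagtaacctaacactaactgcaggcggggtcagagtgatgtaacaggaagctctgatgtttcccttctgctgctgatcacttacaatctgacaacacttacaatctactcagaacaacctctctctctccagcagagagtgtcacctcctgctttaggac
The CALCA window held 1 TGACG, which begins at position −110 from the start, and the CALCRL window held none. The windows of ADM2, CALCR (2 starts) and RAMP3 held none either. Of all 35116 promoter windows of this length, 24.6% held TGACG on one strand or the other. The whole palindrome TGACGTCA was in 1.85% of the windows and in none of those of the 5 genes. These matches describe letters in these windows and nothing more.

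TRIM71 mRNA stood at 10.63, 10.86 and 10.72 on the TRIM71 arrays and at 7.23, 7.54 and 7.44 on the parental arrays, in log2 expression. Its log2 difference, TRIM71 line minus parental line, was 3.33 (SE 0.10, two-sided exact permutation p = 0.1, the smallest that 3 against 3 arrays allow), and every TRIM71 array was above every parental array. Array medians lay between 6.90 and 6.97. Of the 8 genes listed for HEK293 cells all lay above the 95th percentile of the olfactory receptor probesets used below as a dim reference. Of these genes CDH2 and VIM rose, EPCAM, NEFL and KRT8 fell, and PAX2, KRT18 and NEFM were not called, where 22.2% of all genes were. The summed linear level of the 8 was 12129 to 12344 on the TRIM71 arrays and 15962 to 16247 on the parental arrays. Such a sum follows the bright genes most. The mean of NEFL was 10.96 in the TRIM71 line and 12.41 in the parental line, that of EPCAM 9.65 and 11.12. The part of these changes in any result below was not tested.

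Of the ligands, CALCB was the member that stood apart. CALCB read 9.11, 9.31 and 9.14 on the TRIM71 arrays, against 6.64, 6.76 and 6.74 on the parental arrays. All 3 TRIM71 arrays were above all 3 parental arrays, and the lowest TRIM71 array exceeded the highest parental array by 2.35. The means were 9.19 ± 0.11 in the TRIM71 line and 6.71 ± 0.06 in the parental line (SD, n = 3 each), a log2 difference of 2.47 (SE 0.07), or 5.55-fold. By this difference CALCB was the 4th highest of 18404 genes. With any 1 array left out the difference lay between 2.41 and 2.51.

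CALCA, the neighbouring gene for calcitonin and α-CGRP, did not show this separation. It read 6.74, 6.49 and 6.90 on the TRIM71 arrays and 6.23, 6.68 and 6.73 on the parental arrays. The groups overlapped, and the log2 difference of 0.17 (SE 0.16) was smaller than the SD of either group, 0.21 in the TRIM71 line and 0.28 in the parental line. Without parental replicate 1, the lowest array, the difference was 0.0059. CALCA and CALCB are close paralogues, and the probe sequences were not used here, so hybridization of one mRNA to the other's probes was not tested.

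ADM2, which encodes adrenomedullin 2 (intermedin), a ligand of the CALCRL receptors, read 7.46, 7.44 and 7.55 on the TRIM71 arrays and 7.53, 7.62 and 7.76 on the parental arrays. The highest TRIM71 array and the lowest parental array overlapped by 0.02, and the log2 difference was −0.15 (SE 0.07). Without parental replicate 3 it was −0.090.

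**Figure D1:**
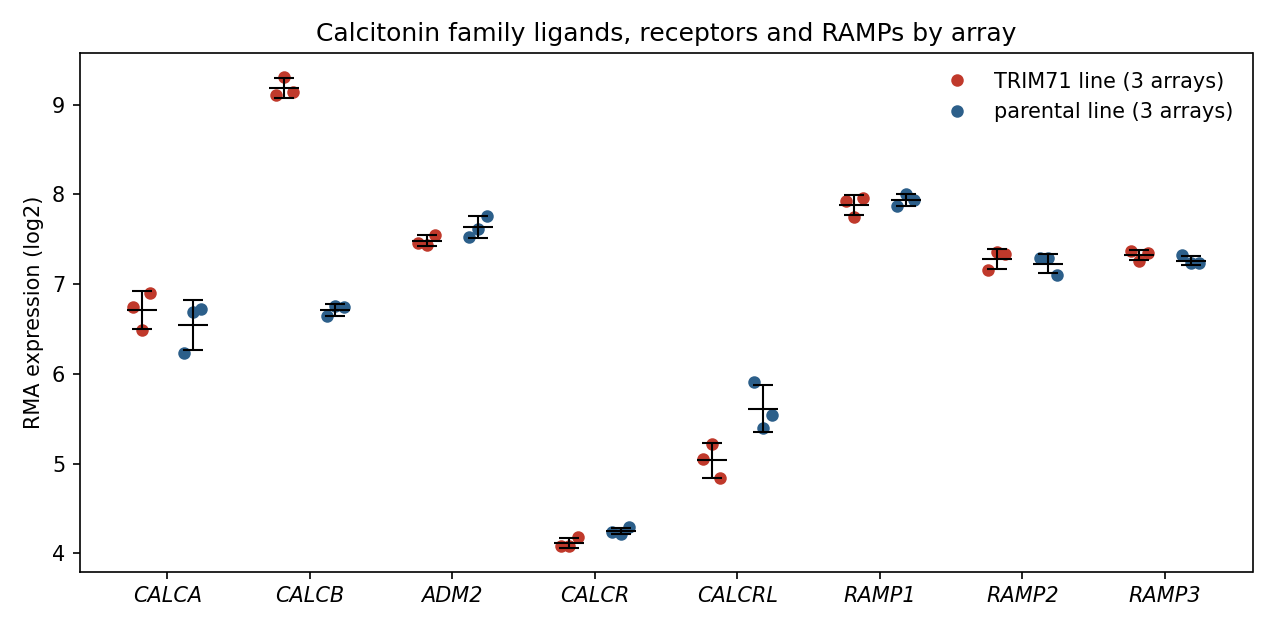
RMA expression (log2, vertical axis) of the 8 family genes on each of the 3 TRIM71 arrays (red, left of each pair) and the 3 parental arrays (blue, right); horizontal marks are group means and bars the SD. CALCB lies between 9.11 and 9.31 in the TRIM71 line and between 6.64 and 6.76 in the parental line, while CALCA, ADM2 and the RAMP genes overlap between groups; heights of different genes are not comparable.

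Of the receptors, CALCRL was lower and dim. CALCRL read 5.05, 5.22 and 4.83 on the TRIM71 arrays, against 5.90, 5.39 and 5.54 on the parental arrays. The groups did not overlap, with a gap of 0.17 between the highest TRIM71 array and the lowest parental array. The means were 5.04 ± 0.19 in the TRIM71 line and 5.61 ± 0.26 in the parental line (SD, n = 3 each), a log2 difference of −0.58 (SE 0.15). With 1 array left out this difference lay between −0.69 and −0.43. After subtraction of the olfactory receptor background it was −1.18, a step that widens differences between values close to that background.

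CALCR, the calcitonin receptor, read 4.08, 4.08 and 4.18 on the TRIM71 arrays and 4.24, 4.22 and 4.29 on the parental arrays. The groups were separated by 0.04, and the log2 difference was −0.14 (SE 0.05). After the same subtraction, which has a floor, it was 0. Probesets of 340 olfactory receptor genes, which are known mainly from the nose, served to show how bright probes read where little mRNA is likely. The CALCR mean exceeded 41.5% of them in the TRIM71 line and 47.6% in the parental line, so it cannot be told from such dim probesets. The CALCRL mean exceeded 82.1% of them in the TRIM71 line and 90.6% in the parental line. CALCB, CALCA, ADM2 and the RAMP genes each exceeded at least 99.1% of them in both lines. This is a low bar, since their median was 4.27 in the TRIM71 line and 4.30 in the parental line. The medians over all probesets were 6.94 and 6.93, and CALCA (means 6.71 and 6.55) and CALCB in the parental line (6.71) lay below them. Exceeding the olfactory receptor probesets thus does not show that an mRNA was present. Brightness also depends on the probes themselves, so these shares say nothing of amounts of one mRNA against another.

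The 3 RAMP genes, whose proteins set the ligand preference of CALCRL and CALCR, overlapped between the groups. RAMP1 read 7.92, 7.75 and 7.96 on the TRIM71 arrays and 7.87, 8.0 and 7.94 on the parental arrays, a log2 difference of −0.06 (SE 0.07). RAMP2 read 7.16, 7.36 and 7.34 on the TRIM71 arrays and 7.29, 7.29 and 7.10 on the parental arrays, a log2 difference of 0.05 (SE 0.08). RAMP3 read 7.37, 7.26 and 7.35 on the TRIM71 arrays and 7.32, 7.23 and 7.23 on the parental arrays, a log2 difference of 0.06 (SE 0.05). In each of the 3 genes the difference was smaller than the range within the TRIM71 arrays, and with 1 array left out RAMP1 and RAMP2 took either sign.

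The fit over all 32321 probesets with limma, at a Benjamini-Hochberg adjusted p under 0.05, called 1 of the 8 members, CALCB (12.5%), where it called 22.2% of all genes. By direction it called 10.0% of all genes higher and 12.2% lower. Each count of called genes below is to be read against these shares. The TRIM71 arrays lay above the parental arrays for 1 member, CALCB (20.2% of all genes), and below them for 2, CALCRL and CALCR (23.4% of all genes). In either direction 43.6% of all genes had groups that did not overlap. Since the same comparison chose the members, nothing is read from these counts of members. The median log2 difference was −0.003 over the 8 members and −0.01 over all genes.

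**Figure D2:**
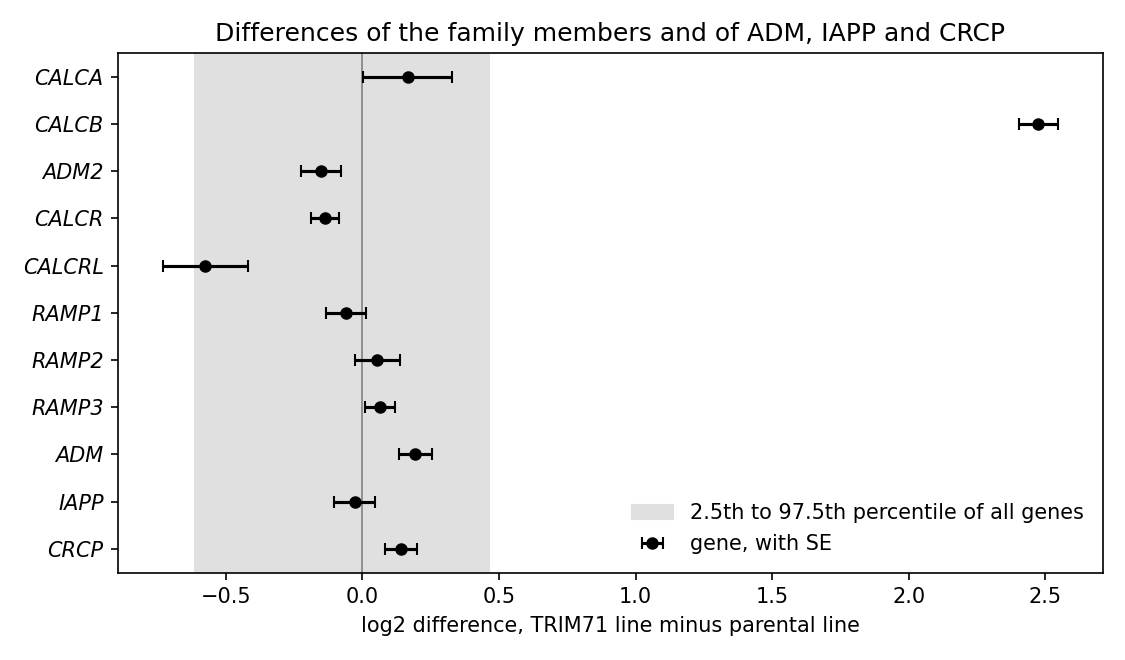
Log2 difference, TRIM71 line minus parental line (horizontal axis), with SE bars from the fit, for the 8 members and for ADM, IAPP and CRCP; the grey band spans the central 95% of all genes, −0.61 to 0.46. CALCB at 2.47 lies outside the band, and CALCRL at −0.58 lies near its lower edge.

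Among further genes of the family, ADM, the gene for adrenomedullin, read 8.86, 8.99 and 8.89 on the TRIM71 arrays and 8.65, 8.75 and 8.77 on the parental arrays. The groups did not overlap, but the log2 difference of 0.19 did not pass the test (limma adjusted p = 0.074). CRCP, which encodes a protein described as a component of the CGRP receptor and a subunit of RNA polymerase III, differed by 0.14 (adjusted p = 0.17), and IAPP, the gene for amylin, by −0.03 (adjusted p = 0.86). IAPP exceeded 3.2% of the olfactory receptor probesets in the TRIM71 line and 2.6% in the parental line, so its mRNA may be absent and a change unseen. Limma called 0 of the 3 genes ADM, CRCP and IAPP, against 1 of 3 at an unadjusted p under 0.05. That unadjusted limit was met by 36.4% of all genes, 17.0% higher and 19.5% lower, the share against which each such count below is to be read. ADM passed with an intensity trend (adjusted p = 0.042), with the same trend and robust estimation (0.044), with a filter at the median brightness (0.027) and with 1 probeset per gene (0.035).

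Genes next to the members on their chromosomes were read from the same fit, 4 on each side. CALCB and CALCA are adjacent on chromosome 11. Of the 7 neighbours of CALCB other than CALCA, 2 rose and 2 fell, and 3 did not pass. PDE3B, a cAMP and cGMP phosphodiesterase, rose to 9.27 ± 0.05 in the TRIM71 line, against 8.72 ± 0.08 in the parental line (SD, n = 3 each; log2 difference 0.55, limma adjusted p = 0.0022). INSC, a spindle orientation adaptor next to CALCB on the other side, rose by 0.47 (adjusted p = 0.0027). CYP2R1, a vitamin D hydroxylase, fell by 0.43 (adjusted p = 0.014) and PLEKHA7, an adherens junction protein, by 0.21 (adjusted p = 0.031). The CYP2R1 call ended when TRIM71 replicate 1 (adjusted p = 0.051) or parental replicate 2 (0.058) was left out, and that of PLEKHA7 without any 1 array (0.055 to 0.106). A fit with 1 array fewer has less power: of all genes 979 to 1485 rose, against 1848 with all arrays, and 1336 to 1709 fell, against 2244. A call here and below can thus end while the difference hardly moves. PSMA1 (−0.02, adjusted p = 0.83), SOX6 (0.24, adjusted p = 0.086) and C11orf58 (−0.07, adjusted p = 0.38) did not pass. The signs of these differences were mixed, and 57.1% of the 7 neighbours were called, beside 22.2% of all genes. CALCB was chosen for its rise, so nothing is read from the smaller differences of its neighbours.

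CALCRL lies on chromosome 2, among genes of which several rose. Of 8 neighbours 5 rose, 0 fell and 3 did not pass, so 62.5% were called, beside 22.2% of all genes. Their median log2 difference was 0.21, where CALCRL itself stood at −0.58. At an unadjusted p under 0.05, limma also had 5 higher and 0 lower. TFPI, an inhibitor of the coagulation start, was at 8.86 ± 0.08 in the TRIM71 line and 7.72 ± 0.22 in the parental line (log2 difference 1.14, limma adjusted p = 0.0018). GULP1, an engulfment adaptor, rose by 0.88 (adjusted p = 0.0012), ITGAV, the integrin αV chain, by 0.67 (adjusted p = 8.6e-04), ZC3H15 by 0.23 (adjusted p = 0.029) and FAM171B by 0.19 (adjusted p = 0.030). The FAM171B call ended without any 1 array (adjusted p = 0.055 to 0.095), while its difference stayed between 0.18 and 0.20. The ZC3H15 call ended without any 1 array other than TRIM71 replicate 3 (0.055 to 0.099).

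Around CALCR on chromosome 7, 3 of 8 neighbours rose and 0 fell, with 5 higher and 0 lower at an unadjusted p under 0.05. The 3 that rose were SAMD9 (0.94), SAMD9L (0.38) and TFPI2 (0.61), with limma adjusted p between 0.0011 and 0.0068. SAMD9L was dim, exceeding 79.4% of the olfactory receptor probesets in the TRIM71 line and 63.8% in the parental line. Around ADM2 on chromosome 22, PLXNB2 (−0.89, adjusted p = 2.1e-04) and LMF2 (−0.35, adjusted p = 0.0072) fell and 0 rose, with 0 higher and 4 lower at an unadjusted p under 0.05. RAMP1 had RBM44 higher (0.30) and RAB17 lower (−0.24), RAMP2 had WNK4 higher (0.27), and RAMP3 had IGFBP3 higher (0.33) and the adenylate cyclase gene ADCY1 lower (−0.44). Of these 5 calls that of ADCY1 was kept without any 1 array. The IGFBP3 call ended without parental replicate 2 (adjusted p = 0.068), TRIM71 replicate 1 (0.051) or TRIM71 replicate 2 (0.063). The RAB17 call ended without any 1 array (0.050 to 0.096), the RBM44 call without any but parental replicate 2 (0.063 to 0.078) and the WNK4 call without any but TRIM71 replicate 1 (0.057 to 0.088). RBM44 was also dim, exceeding 80.6% of the olfactory receptor probesets in the TRIM71 line and 69.4% in the parental line. Over all members, 13 of 56 neighbours rose and 6 fell, or 33.9%, beside 22.2% of all genes.

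**Figure D3:**
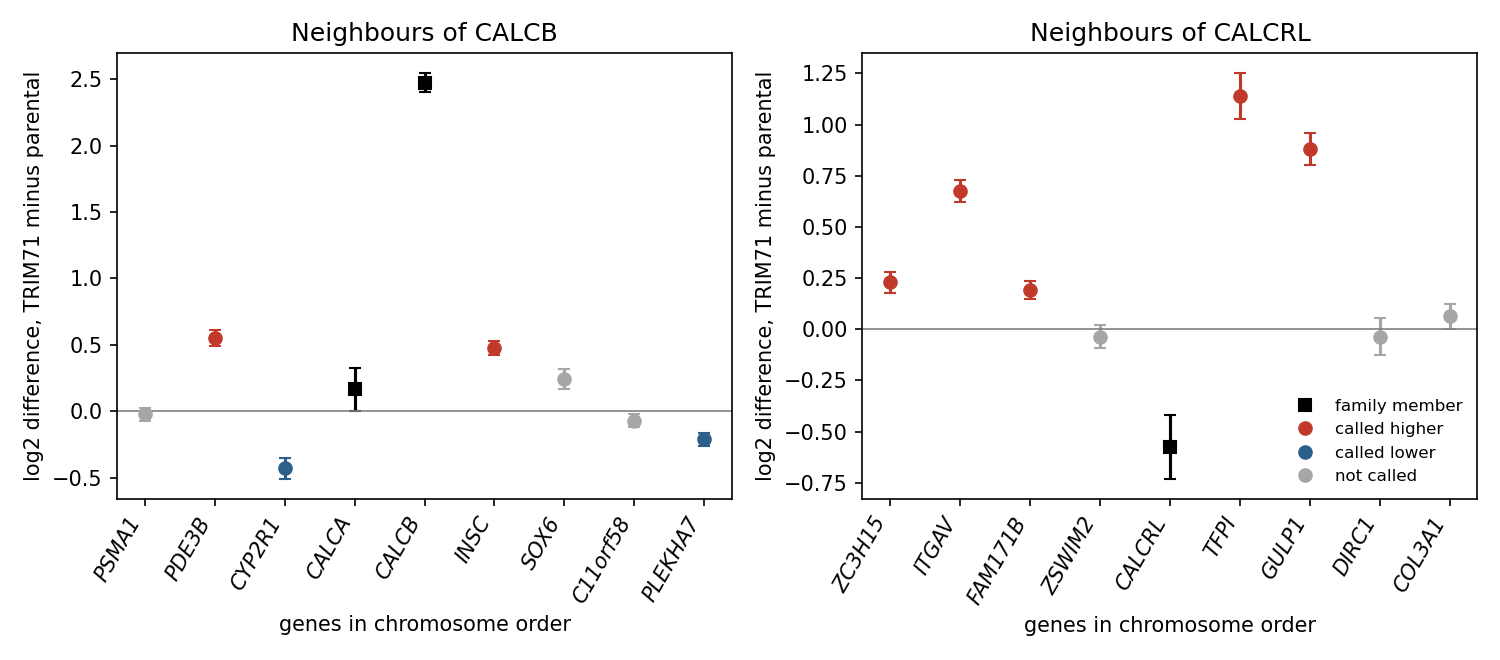
Log2 difference, TRIM71 line minus parental line, with SE bars, of CALCB (left) and CALCRL (right) and the 4 measured genes on each side in chromosome order (horizontal axis, not to scale; the 2 vertical axes differ in range). Black squares are family members, red and blue circles neighbours called higher and lower, grey circles those not called. CALCB is at 2.47, PDE3B at 0.55 and INSC at 0.47, and CALCRL at −0.58 lies below neighbours that reach 1.14.

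Genes that make, break down or answer to such peptides were counted in 11 lists, which name 163 genes, 146 of them measured. Of these 22 rose, 21 fell and 103 did not pass, so 29.5% were called, beside 22.2% of all genes. By list, the share called ran from 0% for ADM, CRCP and IAPP to 46.2% for receptor phosphorylation and trafficking. The median log2 difference was −0.02, beside −0.01 for all genes. With 1 array left out, between 12 and 18 rose and between 8 and 12 fell. The lowest number that rose came without TRIM71 replicate 2 (12), and the number was 13 without parental replicate 2. The number that fell was 9, 12 and 11 without TRIM71 replicates 1, 2 and 3, and 11, 8 and 12 without parental replicates 1, 2 and 3.

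Of 16 measured genes for peptide processing and storage, 2 rose, 1 fell and 13 did not pass (median 0.03). SCG5, the chaperone 7B2 of a prohormone convertase, was at 6.04 ± 0.08 in the TRIM71 line and 5.57 ± 0.08 in the parental line (SD, n = 3 each; log2 difference 0.47, limma adjusted p = 0.0061). PAM, the enzyme that amidates the end of CGRP and calcitonin, read 10.04, 10.09 and 10.02 on the TRIM71 arrays and 9.77, 9.77 and 9.60 on the parental arrays (0.34, adjusted p = 0.016). PCSK6, a proprotein convertase, fell by 0.27 (adjusted p = 0.011). The PAM call ended without TRIM71 replicate 1 (adjusted p = 0.055) or 2 (0.059), and the PCSK6 call without parental replicate 2 (0.051).

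Of 9 peptide-degrading enzymes, 2 fell, 0 rose and 7 did not pass (median 0.01; 3 lower and 1 higher at an unadjusted p under 0.05). DPP4, which removes a dipeptide from the start of many peptide hormones, read 6.30, 5.97 and 5.99 on the TRIM71 arrays, against 7.59, 7.73 and 7.24 on the parental arrays. Its log2 difference was −1.44 (SE 0.15, limma adjusted p = 0.0021), the largest in these lists. MME, neprilysin, fell by 0.24 (adjusted p = 0.032), a call that ended without any 1 array but parental replicate 3 (0.057 to 0.110). ACE (−0.23, adjusted p = 0.064) and the insulin-degrading enzyme IDE (0.16, adjusted p = 0.068) did not pass. ACE passed under 6 of the alternative settings (adjusted p = 0.027 to 0.048) and IDE under 5 (0.014 to 0.044).

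Of 12 other class B1 receptors, 2 fell, 0 rose and 10 did not pass (median −0.03; 2 lower and 0 higher at an unadjusted p under 0.05). VIPR1, a receptor for VIP, was at 7.20 ± 0.12 in the TRIM71 line and 7.88 ± 0.10 in the parental line (SD, n = 3 each; log2 difference −0.68, limma adjusted p = 0.0034). ADCYAP1R1, the PACAP receptor, fell by 0.43 (adjusted p = 0.029), a call that ended without any 1 array but parental replicate 1 (0.061 to 0.097). GCGR (0.08, adjusted p = 0.52) and PTH2R (0.10, adjusted p = 0.54) came next by p and did not pass. Of 9 other class B1 ligands, 1 fell, 0 rose and 8 did not pass (median −0.08; 1 lower and 1 higher at an unadjusted p under 0.05). It was UCN3, a urocortin (−0.29, adjusted p = 0.046), whose call ended without any 1 array but parental replicate 1 (0.070 to 0.139). UCN3 was dim, exceeding 82.1% of the olfactory receptor probesets in the TRIM71 line and 87.1% in the parental line. GIP (0.32, adjusted p = 0.096), UCN (−0.16, adjusted p = 0.22) and UCN2 (−0.15, adjusted p = 0.41) did not pass.

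Of 34 genes of Gs and cAMP signalling, 6 rose, 6 fell and 22 did not pass (median −0.02). The scaffold AKAP13 rose by 0.44 (limma adjusted p = 0.0034) and the coactivator EP300 by 0.40 (adjusted p = 0.0037). The adenylate cyclase genes ADCY1 (−0.44, adjusted p = 0.0049) and ADCY9 (−0.25, adjusted p = 0.029) fell, the second with a call that ended without any 1 array but TRIM71 replicate 2 (0.065 to 0.084). With 1 array left out, 3 to 5 of these genes rose and 1 to 3 fell. The number that rose was 3 without TRIM71 replicate 2 or parental replicate 2, and the number that fell was 1 without TRIM71 replicates 1 or 3 or parental replicates 1 or 2, 2 without parental replicate 3 and 3 without TRIM71 replicate 2.

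Of 14 phosphodiesterases that hydrolyse cAMP, 2 rose, 3 fell and 9 did not pass (median −0.05). PDE8B read 7.25, 7.42 and 7.35 on the TRIM71 arrays, against 8.40, 8.32 and 8.29 on the parental arrays, a log2 difference of −1.0 (limma adjusted p = 4.1e-04). PDE3B, given above as a neighbour of CALCB, and PDE4B (0.38, adjusted p = 0.010) rose. PDE7B fell by 0.44 (adjusted p = 0.017), a call that ended without parental replicates 1 (0.052) or 2 (0.059) or TRIM71 replicate 1 (0.065). The number of the list that fell was 1 when any of these 3 arrays was left out, 2 without TRIM71 replicate 2 or parental replicate 3, and 3 without TRIM71 replicate 3.

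Of 13 genes for receptor phosphorylation and trafficking, 3 rose, 3 fell and 7 did not pass (median 0.08). The sorting nexin SNX1 rose by 0.36 (limma adjusted p = 0.0052) and the recycling GTPase RAB11A by 0.22 (adjusted p = 0.035). The receptor kinases GRK2 (−0.46, adjusted p = 0.013) and GRK5 (−0.24, adjusted p = 0.030) fell. The GRK5 call ended without any 1 array (0.056 to 0.096) and the RAB11A call without any but parental replicate 1 (0.054 to 0.119). With 1 array left out 1 gene fell in each case, and 1 rose in each case but that of parental replicate 1, where 3 rose.

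Of 23 genes known as CREB targets, 7 rose, 2 fell and 14 did not pass (median 0.03, beside −0.01 for all genes). Thus 39.1% were called, beside 22.2% of all genes. SGK1, a serum- and hormone-regulated kinase, read 6.63, 6.79 and 6.62 on the TRIM71 arrays, against 5.99, 5.80 and 5.99 on the parental arrays, a log2 difference of 0.75 (limma adjusted p = 0.0021). The nuclear receptor NR4A3 rose by 0.37 (adjusted p = 0.0058). The stress factor ATF3 (−0.50, adjusted p = 0.0044) and the coactivator PPARGC1A (−0.44, adjusted p = 0.010) fell. The number that rose was 4 without TRIM71 replicate 2, parental replicate 2 or parental replicate 3, and between 5 and 7 without each of the others.

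Of 8 genes for factors and kinases reported to act on the CGRP genes, 3 rose, 0 fell and 5 did not pass (median 0.01; 3 higher and 1 lower at an unadjusted p under 0.05). FOXA2, a forkhead factor, was at 7.57 ± 0.09 in the TRIM71 line and 7.04 ± 0.17 in the parental line (SD, n = 3 each; log2 difference 0.54, limma adjusted p = 0.012). The kinase MAP2K1 rose by 0.34 (adjusted p = 0.0073) and the homeodomain factor ISL1 by 0.34 (adjusted p = 0.043), the ISL1 call ending without any 1 array but TRIM71 replicate 1 (0.072 to 0.116). ELK1 did not pass (−0.15, adjusted p = 0.088). Of 9 bone and vascular effector genes, 1 fell, 0 rose and 8 did not pass (median −0.04; 2 lower and 1 higher at an unadjusted p under 0.05). It was GUCY1B1, the β chain of soluble guanylate cyclase (−0.49, adjusted p = 0.011). GUCY1A1 (0.17, adjusted p = 0.096), KCNJ8 (0.12, adjusted p = 0.20) and the calcitonin-linked bone receptor gene TNFRSF11A (−0.12, adjusted p = 0.13) did not pass.

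**Figure D4:**
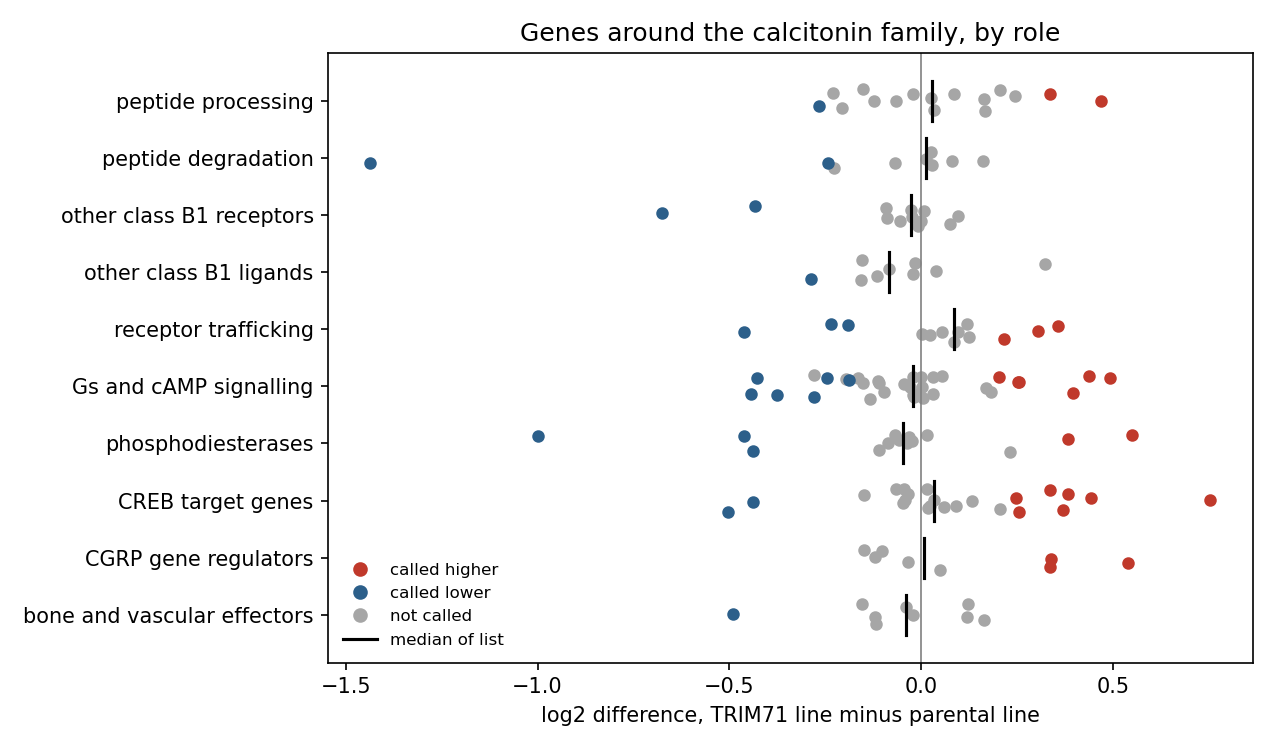
Log2 difference, TRIM71 line minus parental line (horizontal axis), of each measured gene in 10 lists around the calcitonin family (vertical axis; height within a row has no meaning). Red and blue mark genes called higher and lower at an adjusted p under 0.05, grey those not called, and the black line the median of the list; the medians lie between −0.08 and 0.08, and DPP4 at −1.44 and PDE8B at −1.0 lie farthest out.

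CGRP is a marker of peptidergic sensory neurons, and genes of that cell type were read beside CALCB. Of 7 measured markers 2 rose and 2 fell, with 2 higher and 3 lower at an unadjusted p under 0.05. Of the 7, 2 lay within the 95th percentile of the olfactory receptor probesets. The summed linear level of the 7 was 1332 to 1370 on the TRIM71 arrays and 1343 to 1442 on the parental arrays. The called markers and TAC1 were chosen for naming after their values were seen. SCN9A, a sodium channel, rose by 1.01 (limma adjusted p = 2.2e-04) and ISL1 by 0.34, as above, while the intermediate filament gene PRPH fell by 0.78 (adjusted p = 0.0016) and the factor POU4F1 by 0.54 (adjusted p = 0.0034). TAC1, the gene for substance P, read 4.76 ± 0.22 in the TRIM71 line and 5.24 ± 0.27 in the parental line (SD, n = 3 each). Its groups overlapped, and it did not pass (limma adjusted p = 0.105). TAC1 was dim, exceeding 72.6% of the olfactory receptor probesets in the TRIM71 line and 86.5% in the parental line. What part of the CALCB difference goes with such markers was not tested. Of 5 neuroendocrine markers limma called 0, with 1 higher and 1 lower at an unadjusted p under 0.05, and 2 lay within the same 95th percentile. The summed level of the 5 was 538 to 621 on the TRIM71 arrays and 576 to 630 on the parental arrays. Endothelial cells are a known site of CALCRL and RAMP2. Of 9 endothelial markers limma called 0, with 0 at an unadjusted p under 0.05, and 7 lay within the 95th percentile of the olfactory receptor probesets. Their summed level was 391 to 445 on the TRIM71 arrays and 389 to 430 on the parental arrays. Of 4 leukocyte markers limma also called 0, with 0 at an unadjusted p under 0.05, and 3 lay within that 95th percentile. The summed level of the 4 was 147 to 164 on the TRIM71 arrays and 150 to 162 on the parental arrays. No marker is listed at 0, since RMA gives every probeset a value.

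The 6 genes whose values over the 6 arrays lay nearest to those of CALCB, each centred on its parental mean, were taken by Euclidean distance in log2 units. They were the DNA sensor gene IFI16 (distance 0.55), the thrombin receptor family gene F2RL2 (0.74), the cytidine deaminase gene APOBEC3B (0.75), the hyaluronan synthase gene HAS2 (0.82), the small heat shock protein gene HSPB8 (1.18) and PRTG (1.40). IFI16 read 8.76, 8.95 and 8.89 on the TRIM71 arrays and 6.10, 6.10 and 6.05 on the parental arrays. The distance mostly reflects the size of the difference between the lines, since 6 arrays in 2 groups carry little other pattern.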

How the data were processed

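The deposited table holds 1 column of log2 values for each array, which the authors made with RMA; affy is the other tool listed, both per the submitters' processing notes. Their versions, the annotation and the build are not given in the sources used here. RMA equalizes the probe distributions of the arrays, so a change in total mRNA per cell cannot be seen. The 32321 probesets included 19158 with 1 gene symbol in the annotation for the array, 1388 with several and 11775 with none. A gene was represented by its brightest 1-symbol probeset (18404 genes), and chromosomes and gene order came from RefSeq by gene ID (19128 matched).

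Both groups were compared in a limma 3.58.1 fit (R 4.3.3) over every probeset, with no covariate, intensity trend or filter. A gene counts as called where the adjusted p (Benjamini-Hochberg, over every probeset) is under 0.05. SE values come from this fit. The procedure was tested on simulated data with independent noise on each array, which cannot show whether the replicates here were independent. For the background alternative, the median of the olfactory receptor probesets was subtracted on the linear scale, with a floor of 1. With 3 arrays a group, precision is limited.

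The members and the gene lists were chosen with earlier results of these data known. The genes named beside the members were TRIM71, the further family genes, up to 4 genes of each list with the lowest adjusted p (2 a direction where both had calls), all neighbours of CALCB, the called neighbours of the other members, and the 6 genes nearest to CALCB. The cell type markers and HEK293 genes named in the text, other than ISL1, were outside this rule. Their calls are not among the 52 named calls and were not checked under other settings. Genes of the lists that had no 1-symbol probeset were not analysed here.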

Additional observations from a re-analysis of the deposited data

How the results depend on the processing

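The log2 difference of CALCB, which chose the members, was 2.72 after background subtraction. That of CALCRL went to −1.18 and that of CALCR to 0. The number of members called, from which nothing is read, was 2 rather than 1 with an intensity trend, with that trend and robust estimation, with a filter at the 25th percentile and with 1 probeset per gene. The second was CALCRL, called in these 4 of 18 settings and not in the main fit, while CALCB was called in all 18. Of 18404 genes, 792 rose and 1106 fell at an adjusted p under 0.01, of the listed genes 10 and 5. With the replicate block 1019 genes rose and 1371 fell, of the listed genes 13 and 10. Deviations from the group mean correlated at 0.07, −0.19 and 0.11 between same-numbered arrays of the lines, and at −0.28 to 0.24 between differently numbered ones. Same-numbered arrays were thus no more alike than others, and pairing under other numbers was not tested. The block ended 14 of 52 calls of named genes, among them GUCY1B1 (adjusted p = 0.053) and ISL1 (0.105). With 1 array left out, 979 to 1485 genes rose and 1336 to 1709 fell, of the listed genes 12 to 18 and 8 to 12, CALCB lay between 2.41 and 2.51, and 34 of the 52 named calls were kept. The difference of IAPP ran from −0.090 to 0.014 (0.014 without TRIM71 replicate 1, 0.0070 without parental replicate 1) and that of PSMA1 from −0.053 to 0.0024 (the last without parental replicate 1). Median centring ended calls of MME, ADCY9, RAB11A, GRK5, ISL1, PLEKHA7, ZC3H15, FAM171B, RAB17 and WNK4. Of the named genes that did not pass, ADM, IDE, ACE, SOX6, ELK1, GUCY1A1, TNFRSF11A and GIP passed under at least 1 alternative, mostly a filter or 1 probeset per gene, which adjust over fewer probesets. Dim probesets such as those of CALCR and IAPP limit what can be seen. Some called genes were in 1 line only within the 95th percentile of the olfactory receptor probesets. Among them were SCG5 and F2RL2 in the parental line, and ADCYAP1R1 and PDE7B in the TRIM71 line.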
